A study of Mus musculus with 6 samples.

Results

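Ceramide, sphingomyelin and sphingosine-1-phosphate metabolism was followed here through 35 genes, chosen by symbol for their known enzyme or receptor function, out of 24346 gene symbols measured in each library. All 35 symbols were found in the tables. The set covers serine palmitoyltransferase and its inhibitors, the later steps of de novo synthesis, the sphingomyelin cycle, ceramidases, the kinases and breakdown enzymes of sphingosine-1-phosphate, a galactolipid branch and 4 receptors. The ceramide synthases are not part of it. With a mean of at least 0.5 FPKM (fragments per kilobase of transcript, scaled to sequencing depth, as deposited) 31 members were tested, and the remaining 4 were Sptlc3, Sgms2, Acer1 and S1pr5.

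The libraries were made from mouse retinas, taken whole at day 12 after birth from 3 littermate pairs. Every mouse lacked Nrl (Nrl-/-), the factor that directs photoreceptor precursors to become rods, and without it cone-like cells take their place. In the 3 control libraries Panky and Panky-like were heterozygous (Panky+/-, Panky-like+/-), and in the 3 triple-deficient libraries both were homozygous mutant (Panky-/-, Panky-like-/-). There was no group with intact Panky or intact Nrl, while how the alleles were built and how many animals a library holds is not given here. Panky is Ankrd33 and Panky-like is taken to be its paralog Ankrd33b, which the labels do not spell out.

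Ceramide stands at the centre of sphingolipid metabolism. Serine palmitoyltransferase joins serine to palmitoyl-CoA, and the product is reduced, acylated and desaturated to ceramide, which receives a phosphocholine head group to become sphingomyelin or a sugar to become a glycosphingolipid such as a ganglioside. Sphingomyelinases return ceramide from sphingomyelin, ceramidases release sphingosine, and sphingosine kinases turn sphingosine into sphingosine-1-phosphate (S1P), a ligand of G protein-coupled receptors. In the retina, ceramide is known for its part in photoreceptor death, and S1P for its part in photoreceptor differentiation and blood vessel stability.

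Panky is known as a co-repressor of Crx, a photoreceptor homeodomain factor whose DNA core motif is TAATCC. The 250 bases before the annotated start of each member were therefore searched for TAATCC on either strand, where the other strand reads GGATTA. RefSeq's promoter table (GRCm38.p6, the mm10 assembly) held 49 windows for 32 of the members, of which 3 (6.12%) carried the core, beside 6.25% of all 32851 windows of that length. Those 3 windows belong to S1pr3, Smpd4 and Sgms1, and they are shown because Crx is the factor through which Panky is known to act. Acer2 is shown beside them because it had the largest difference between the groups among the members tested, and its window holds no copy. Each sequence is the strand of the gene, 5′ to 3′, and capitals mark the core.
S1pr3 (chr13:51408368-51408617, plus strand): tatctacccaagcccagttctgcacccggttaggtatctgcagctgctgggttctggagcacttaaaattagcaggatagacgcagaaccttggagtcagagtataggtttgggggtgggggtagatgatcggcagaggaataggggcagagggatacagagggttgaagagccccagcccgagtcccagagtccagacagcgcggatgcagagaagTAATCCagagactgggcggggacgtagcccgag
Smpd4 (chr16:17619104-17619353, plus strand): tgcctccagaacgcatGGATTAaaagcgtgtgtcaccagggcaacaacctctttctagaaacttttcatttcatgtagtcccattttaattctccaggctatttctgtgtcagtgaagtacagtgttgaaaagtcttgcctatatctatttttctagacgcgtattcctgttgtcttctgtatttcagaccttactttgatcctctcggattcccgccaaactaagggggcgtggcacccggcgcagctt
Sgms1 (chr19:32211014-32211263, minus strand): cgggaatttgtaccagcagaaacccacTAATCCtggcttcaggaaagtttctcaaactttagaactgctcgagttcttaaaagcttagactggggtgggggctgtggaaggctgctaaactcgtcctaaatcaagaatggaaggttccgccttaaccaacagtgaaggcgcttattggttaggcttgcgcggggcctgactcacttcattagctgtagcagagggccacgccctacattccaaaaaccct
Acer2 (chr4:86874164-86874413, plus strand): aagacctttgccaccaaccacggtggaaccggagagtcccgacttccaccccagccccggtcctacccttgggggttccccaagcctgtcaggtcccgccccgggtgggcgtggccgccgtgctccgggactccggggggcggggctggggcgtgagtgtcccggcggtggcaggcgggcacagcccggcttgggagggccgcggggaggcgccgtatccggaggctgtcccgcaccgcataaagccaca
The first base of the core lies 33 bases before the start in S1pr3, 234 in Smpd4 and 223 in the Sgms1 window, which is 1 of several annotated starts of that gene. The start used for Acer2 also lies inside the full span that RefSeq gives the gene, so the end of its window is within the gene. A match of letters describes the sequence only.

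FPKM sums of the 6 libraries ran from 385962 to 396697, and the steps of the lowest values put them at about 18.2 to 27.2 M fragments. Ankrd33b fell to 4.44% and Ankrd33 to 52.2% of the control mean (limma log2 changes of -3.80 and -0.93, adjusted p = 4.56e-07 and 0.00274). Both were lower in all 3 triple-deficient libraries, but Ankrd33 was still at 50.5 to 59.6 FPKM there, and Nrl was at 38.3 to 53.7 FPKM in the 6 libraries labelled Nrl-/-. Without the structure of the alleles, these values check the Nrl and Panky labels only in part. Cone markers were abundant, at a summed 4922 to 5496 FPKM over 9 genes in controls and triple-deficient libraries together. The rod list summed to 1320 to 1426 FPKM, nearly all of it Sag, at 1239 to 1345 FPKM, which cones also express. Of its other genes, Pde6b was at 18.5 to 23.7 FPKM, Pde6a at 11.5 to 22.4 FPKM and Nr2e3 at 3.62 to 4.58 FPKM, while Gnat1 and Cnga1 were at most 0.514 FPKM. Pde6a, Nr2e3 and Nrl were higher in all 3 triple-deficient libraries than in every control, by log2 changes of 0.56, 0.21 and 0.25 (limma adjusted p = 0.448, 0.836 and 0.861). Of 92 tested markers in 14 cell type lists, none passed limma's adjusted threshold, beside 0.0279% of all genes tested. An unadjusted limma p below 0.05 was found for 7 markers, beside 5.09% of all genes tested. Summed levels of a list did not overlap between the groups for Müller glia and for pigment epithelium. Müller sums were 2096 to 2158 FPKM in controls and 1910 to 2058 FPKM in triple-deficient libraries. Pigment epithelium sums were 22.1 to 34.02 and 14.3 to 21.0 FPKM. Single genes did not overlap for 10.5% of all genes tested, and no such share was taken for sums. Median log2 changes were -0.01 for the Müller list and -0.60 for the pigment epithelium list. Apoe (-0.27) was the only 1 of the 8 Müller markers without overlap between the groups. The remaining 12 lists overlapped, and their median log2 changes ran from -0.33 for lens to 0.10 for rods. The lens list stood apart in control 1, with a sum of 14.3 FPKM beside 2.43 to 3.56 FPKM in the others and with Cryaa at 4.61 FPKM beside at most 0.129 FPKM. Triple-deficient 3 stood apart in base composition: its deviations from the gene means had a Spearman correlation of -0.59 with GC content, beside 0.07 to 0.30 in the others (computed over genes, which are no independent replicates).

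The level of each member describes which arm of the pathway these retinas transcribed, and levels are compared between genes per length, in FPKM. Within serine palmitoyltransferase, the catalytic subunits Sptlc1 and Sptlc2 stood at nearly equal levels, with 6-library means of 12.0 and 12.2 FPKM and overlapping ranges. Sptlc3, an alternative catalytic subunit that uses other acyl chains, was listed at 0 in every library. The small subunit Sptssa, which activates the enzyme, was the most abundant member, at 123, 122 and 128 FPKM in controls 1, 2 and 3 and at 131, 139.5 and 134 FPKM in triple-deficient 1, 2 and 3. Only 467 of the 14325 genes tested had a higher mean. Its counterpart Sptssb, which favours longer sphingoid bases, was at 1.65, 2.29 and 1.70 FPKM in the controls and 1.94, 1.96 and 1.82 FPKM in the triple-deficient libraries, with control 2 the highest of the 6. The ratio of Sptssa to Sptssb ran from 53.3 to 75.4 over the libraries.

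The ORMDL proteins bind serine palmitoyltransferase and restrain it when ceramide is plentiful. Ormdl3 supplied most of their transcripts, at 99.2, 96.0 and 91.8 FPKM in the controls and 98.0, 99.97 and 99.0 FPKM in the triple-deficient libraries. Ormdl1 followed at 20.8, 21.6 and 25.2 FPKM and at 23.2, 21.9 and 27.3 FPKM. Ormdl2 was the lowest, at 11.9, 10.96 and 11.4 FPKM and at 10.02, 10.8 and 11.7 FPKM. The 3 genes did not overlap with each other in any library, and Ormdl3 made up 73.8% ± 2.02 of their summed FPKM in controls and 73.9% ± 1.90 in triple-deficient retinas (SD, n = 3). Between the groups each of the 3 genes overlapped.

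Downstream, Degs1, the desaturase that completes ceramide, was at 19.1, 21.7 and 20.7 FPKM in the controls and 20.7, 21.2 and 21.6 FPKM in the triple-deficient libraries. Its paralog Degs2, which can also hydroxylate dihydroceramide, and Kdsr, the reductase that acts straight after serine palmitoyltransferase, had 6-library means of 14.4 and 13.2 FPKM with overlapping ranges. Among sphingomyelin synthase family genes, Samd8, whose product makes ceramide phosphoethanolamine in the endoplasmic reticulum, led at 23.1, 23.3 and 22.9 FPKM in the controls and 22.7, 23.4 and 25.8 FPKM in the triple-deficient libraries. The Golgi synthase Sgms1, the main source of new sphingomyelin in many cells, had a mean of 5.93 FPKM, and the plasma membrane synthase Sgms2 one of 0.403 FPKM. Samd8 made up 77.8% to 80.2% of the summed FPKM of these 3 genes in every library.

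Sphingomyelinases were led by Smpd1, the acid enzyme of the lysosome. It was at 76.4, 74.3 and 84.3 FPKM in the controls and 81.0, 79.8 and 70.3 FPKM in the triple-deficient libraries, so the groups overlapped and triple-deficient 3 was the lowest. The neutral enzymes Smpd2, Smpd3 and Smpd4 had means of 27.9, 13.4 and 13.3 FPKM over the 6 libraries, and the ranges of the last pair overlapped. Ceramidases were led by Asah1, the acid ceramidase of the lysosome, at 24.9, 23.3 and 25.3 FPKM in the controls and 24.6, 26.9 and 25.9 FPKM in the triple-deficient libraries. The Golgi enzyme Acer2 and the alkaline ceramidase Acer3 followed at means of 5.73 and 3.85 FPKM, the neutral ceramidase Asah2 at 1.58 FPKM, and Acer1, known from epidermis, at 0.0765 FPKM. All 5 ceramidase ranges were separate from one another.

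Cerk, which phosphorylates ceramide, was the most abundant of the lipid kinases. Sphk2, the sphingosine kinase also found in the nucleus and mitochondria, had a 6-library mean of 14.3 FPKM and was above the mostly cytosolic Sphk1, at 5.84 FPKM, in every library. For the breakdown of S1P, the phosphatase Sgpp1 was at 18.3, 18.4 and 19.9 FPKM in the controls and 19.2, 20.2 and 20.7 FPKM in the triple-deficient libraries. The lyase Sgpl1, which cleaves S1P irreversibly, averaged 11.2 FPKM and the second phosphatase Sgpp2 3.05 FPKM. Their ranges were separate.

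Of the S1P receptors, S1pr3 and S1pr1 were nearly equal, at means of 13.2 FPKM each and with overlapping ranges, while S1pr2 averaged 1.56 FPKM and S1pr5 0.225 FPKM. S1pr1 is the receptor known for endothelial barrier function, and the summed level of 10 endothelial markers overlapped between the groups, at 153 to 168 FPKM in controls and 155 to 166 FPKM in triple-deficient libraries. S1pr5 and the galactolipid enzymes are known from oligodendrocytes. Gal3st1, the sulfotransferase that makes sulfatide, was at 0.976, 0.934 and 0.812 FPKM in the controls and 0.738, 1.13 and 0.739 FPKM in the triple-deficient libraries. Ugt8a, the galactosylceramide synthase before it, averaged 0.819 FPKM, and the ranges of the pair overlapped. All 11 oligodendrocyte markers were found in the tables, at a summed 29.5 to 32.6 FPKM in controls and 30.7 to 32.1 FPKM in triple-deficient libraries. Mobp was listed at 0 in every library, and Olig1, Olig2, Sox10 and Opalin did not exceed 0.141 FPKM. Most of the sum was Cnp, at 15.1 to 16.6 FPKM, and Mbp, which reached 10.6 FPKM. At the estimated depths and the longest annotated transcript, these low values rest on few fragments: about 25 to 45 per library for Gal3st1, 55 to 80 for Ugt8a, 39 to 83 for Sgms2, 8 to 18 for S1pr5 and 2 to 8 for Acer1.

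**Figure D1:**
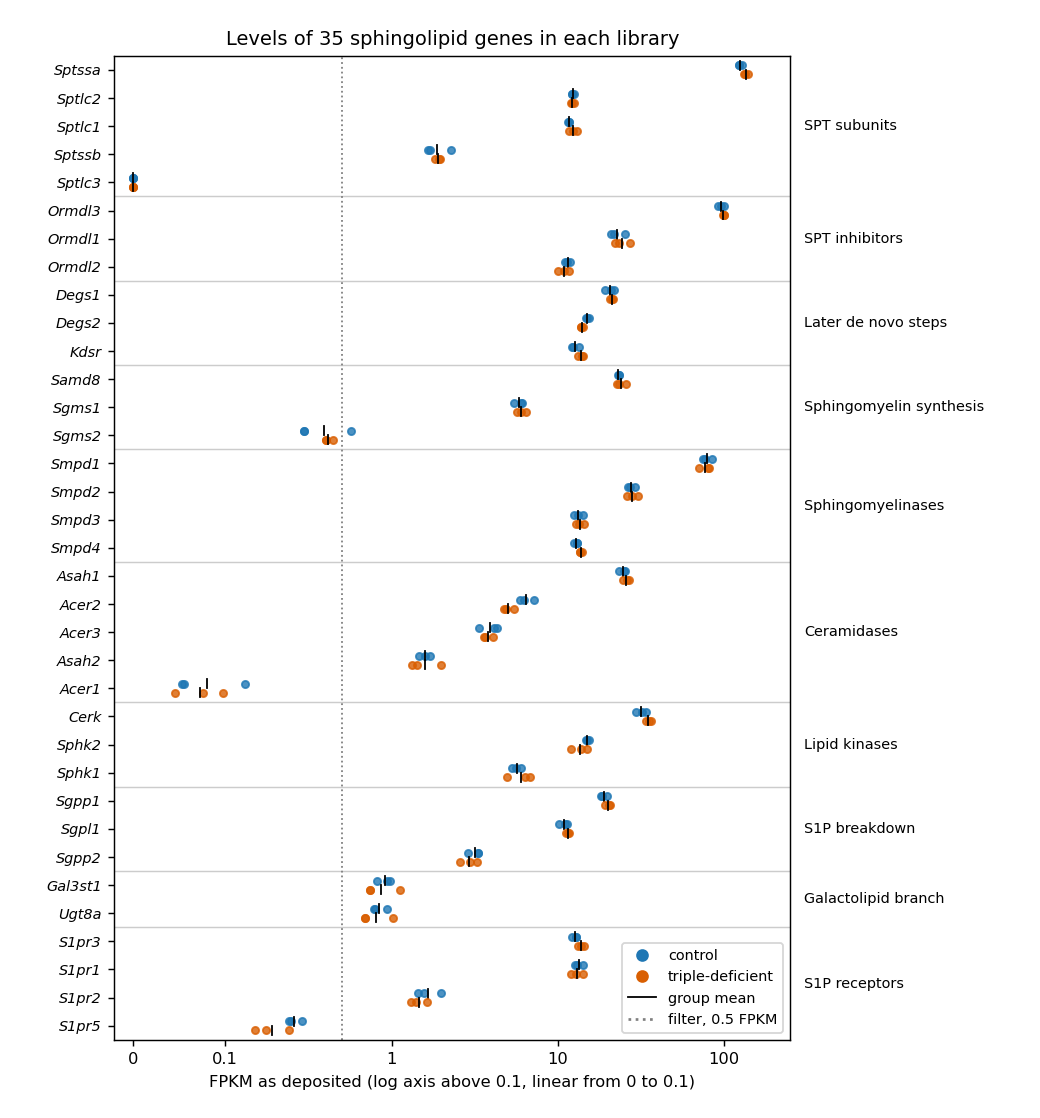
FPKM of the 35 members in each of the 6 libraries (points; 3 control and 3 triple-deficient), with a short black line at each group mean, ordered by role and level. The axis is logarithmic above 0.1 FPKM and linear below it. Sptssa, Ormdl3 and Smpd1 stand highest, at 6-library means of 129.5, 97.4 and 77.7 FPKM, and the dotted line at 0.5 FPKM separates Sgms2, S1pr5, Acer1 and Sptlc3 from the 31 members tested.

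The comparison of genotypes asks whether loss of Panky and Panky-like in an Nrl-null retina changes this pathway. None of the 31 tested members passed limma's adjusted threshold of 0.05, beside 4 of 14325 genes, or 0.0279%, over the whole table. Each change is the triple-deficient mean of log2(FPKM + 1) minus the control mean, a scale on which low genes appear to differ less than they do. The changes ran from -0.31 to 0.14 with a median of 0.02, beside a median of 0.003 over all genes tested. The smallest adjusted p was 0.690. Whole retinas were measured, so fewer cells of a type and less RNA per cell cannot be told apart.

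At an unadjusted limma p below 0.05 there were 3 members, 9.68% of those tested, beside 5.09% of all genes. Higher values accounted for 2 of them, Sptssa and Cerk (6.45% of the members beside 1.76% of all genes), and a lower value for Acer2 (3.23% beside 3.33%). The groups did not overlap for 5 members, 16.1% beside 10.5% of all genes. Triple-deficient libraries were all higher for Sptssa, Smpd4 and S1pr3 (9.68% beside 4.86%) and all lower for Acer2 and Degs2 (6.45% beside 5.64%). With counts this small, each share moves by several percentage points with a single gene.

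The largest difference was that of Acer2, an alkaline ceramidase of the Golgi that releases sphingosine. Acer2 was at 6.26, 7.16 and 5.91 FPKM in controls 1, 2 and 3 and at 4.90, 4.73 and 5.41 FPKM in triple-deficient 1, 2 and 3. Every triple-deficient library lay below every control, and triple-deficient 3 and control 3 were the nearest pair. Means were 6.44 ± 0.647 and 5.01 ± 0.356 FPKM (SD, n = 3), 77.8% of the control level. The log2 change was -0.31 (SE 0.082, 95% interval -0.49 to -0.12), which did not pass over all genes (limma unadjusted p = 0.00563, adjusted p = 0.690). Summed levels of pigment epithelium and Müller glia markers, given above, were also lower in triple-deficient libraries. The Müller list, however, had a median log2 change of -0.01. Of the 5 tested pigment epithelium markers, Ttr, Tyrp1 and Pmel were lower without overlap, by log2 changes of -0.77, -0.60 and -0.84. Rpe65 (-0.16) and Rgr (-0.27) overlapped, and Rpe65 was highest in triple-deficient 3. Below the filter, Best1 and Lrat stood at 95.8% and 108% of their control means, Mlana and Slc6a20a at 55.8% and 50.6%. The part of pigment epithelium and Müller glia in the Acer2 values was not tested. Acer2 lies on chromosome 4 (86874348 to 86932524 in GRCm38), and no other gene of GENCODE M21 shares its exons.

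No other tested ceramidase had groups that did not overlap. Asah1 had a log2 change of 0.07 (95% interval -0.05 to 0.20), Acer3 of -0.04 (-0.25 to 0.17) and Asah2 of -0.006 (-0.26 to 0.25) in the limma fit. Their summed FPKM with Acer1 and Acer2 was 36.5 ± 0.223 in controls and 36.3 ± 1.43 in triple-deficient retinas (SD, n = 3). Within that sum, Acer2 made up 17.6% ± 1.76 in controls and 13.8% ± 0.822 in triple-deficient retinas. The ratio of Acer2 to Acer3 was 1.53, 1.67 and 1.75 in the controls and 1.35, 1.31 and 1.32 in the triple-deficient libraries, in groups that do not overlap. This ratio was chosen after the values of Acer2 were seen, contains those values, and is given without a test. Among the other ratios taken, Degs1 to Degs2, Asah1 to Acer2 and Sphk2 to Sphk1 also did not overlap, and the rest overlapped.

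Sptssa, whose values are listed above, was higher in every triple-deficient library than in every control, and control 3 and triple-deficient 1 came closest. Means were 124 ± 3.44 and 135 ± 4.45 FPKM (SD, n = 3), a log2 change of 0.11 (SE 0.046, 95% interval 0.0085 to 0.22; limma unadjusted p = 0.0374, adjusted p = 0.930). Its longest transcript has 40.7% GC, and after removal of the GC trend of each library its change was 0.08 and its groups overlapped. With the replicate number as a block it no longer had an unadjusted p below 0.05 (limma adjusted p = 0.984), and the labels do not tie the numbers to the littermate pairs. For the other subunits the groups overlapped: Sptlc1 had a change of 0.08 (95% interval -0.05 to 0.21), Sptlc2 one of -0.008 (-0.12 to 0.10) and Sptssb one of 0.02 (-0.21 to 0.25). Among the inhibitors, the changes of Ormdl1, Ormdl2 and Ormdl3 were 0.10, -0.07 and 0.05, with intervals between -0.22 and 0.31.

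**Figure D2:**
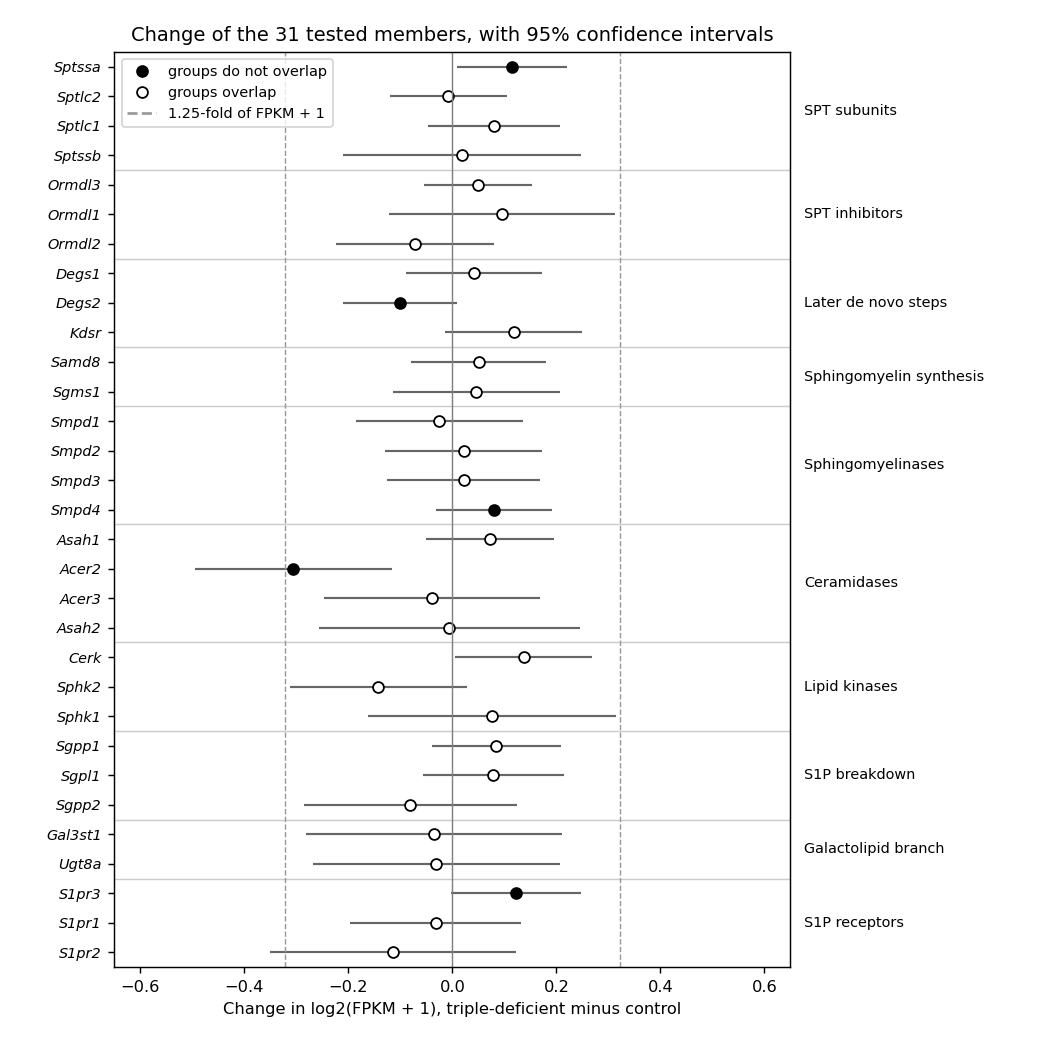
Change of each tested member in log2(FPKM + 1), triple-deficient minus control, with 95% confidence intervals from the limma fit. Filled points mark the 5 members whose groups do not overlap, and dashed lines mark 1.25-fold of FPKM + 1 in either direction. Acer2 at -0.31 lies farthest from 0, and 29 of the 31 intervals lie within the dashed lines.

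Cerk, ceramide kinase, was at 29.7, 33.7 and 32.0 FPKM in the controls and 35.4, 36.1 and 33.7 FPKM in the triple-deficient libraries. Control 2, at 33.73 FPKM, was just above triple-deficient 3, at 33.70 FPKM, so the groups overlapped by that pair. The log2 change of Cerk was 0.14 (SE 0.058, 95% interval 0.0055 to 0.27; limma unadjusted p = 0.0430, adjusted p = 0.943). Cerk is the only member on chromosome 15, which also carries both targeted genes, and it lies 14.9 Mb from Ankrd33. The part of this position in the Cerk values was not tested.

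The sphingosine kinases had changes of opposite sign, and neither passed the test. Sphk1 was at 6.003, 5.61 and 5.30 FPKM in the controls and 6.36, 6.80 and 4.96 FPKM in the triple-deficient libraries. Sphk2 was at 14.8, 15.02 and 15.3 FPKM and at 14.9, 13.8 and 12.1 FPKM. For both genes triple-deficient 3 was the lowest of the 6 libraries, and both transcripts are rich in GC, at 59.6% and 58.6%. Their log2 changes were 0.08 and -0.14, became 0.15 and -0.08 with the GC trend removed, and were 0.19 and -0.07 without triple-deficient 3 (limma adjusted p = 0.963 and 0.943 with all libraries). The part of base composition in these values was not tested further.

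Degs2 was at 15.3, 14.7 and 14.9 FPKM in the controls and 13.7, 14.1 and 13.9 FPKM in the triple-deficient libraries, lower in all 3. Its log2 change was -0.10 (SE 0.048; limma unadjusted p = 0.0666, adjusted p = 0.943), while that of Degs1 was 0.04 (95% interval -0.09 to 0.17). Kdsr had means of 12.6 ± 0.663 and 13.8 ± 0.467 FPKM (SD, n = 3) and a change of 0.12 (95% interval -0.01 to 0.25), with groups that overlapped.

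Smpd4, a neutral sphingomyelinase also found at the nuclear envelope, was at 12.6, 13.1 and 13.1 FPKM in the controls and 13.9, 13.6 and 13.5 FPKM in the triple-deficient libraries. All 3 were higher, by a log2 change of 0.08 (SE 0.048; limma unadjusted p = 0.139, adjusted p = 0.946). The other sphingomyelinases had changes of -0.03 for Smpd1, 0.02 for Smpd2 and 0.02 for Smpd3, with intervals between -0.19 and 0.17. On the synthesis side Sgms1 and Samd8 each had a change of 0.05, with intervals between -0.11 and 0.21. Sgms2, below the filter, was at 0.299, 0.573 and 0.298 FPKM in the controls and 0.405, 0.403 and 0.443 FPKM in the triple-deficient libraries.

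S1pr3, a receptor coupled to several G proteins, was at 12.9, 12.1 and 12.8 FPKM in the controls and 13.8, 13.3 and 14.4 FPKM in the triple-deficient libraries. Again the groups did not overlap, control 1 and triple-deficient 2 being the nearest pair. The log2 change of S1pr3 was 0.12 (SE 0.054, 95% interval -0.003 to 0.25; limma unadjusted p = 0.0545, adjusted p = 0.943). S1pr1 had a change of -0.03 (95% interval -0.20 to 0.13) and S1pr2 one of -0.11 (-0.35 to 0.12). S1pr5 was at 0.249, 0.289 and 0.242 FPKM in the controls and 0.177, 0.151 and 0.242 FPKM in the triple-deficient libraries, too few fragments for a statement on its level. S1P breakdown genes had changes of 0.08 for Sgpl1, 0.08 for Sgpp1 and -0.08 for Sgpp2, and the galactolipid genes Ugt8a and Gal3st1 had changes of -0.03 and -0.04.

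**Figure D3:**
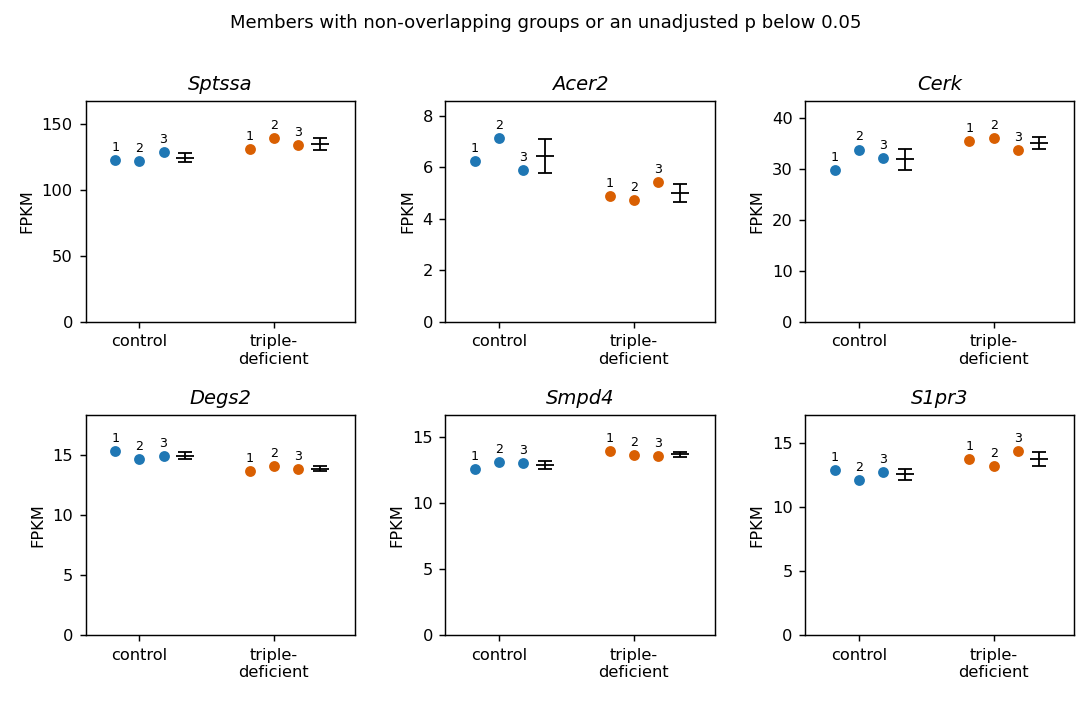
FPKM in each library, numbered by replicate, for the 5 members with non-overlapping groups and for Cerk, with the mean and SD of each group (n = 3) drawn to the right of its points. Axes start at 0. The step is plain for Acer2, from 6.44 to 5.01 FPKM, and small against the level for the remaining 5 genes.

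The intervals bound what these libraries allow. All 31 tested members had 95% intervals within 1.5-fold of FPKM + 1 in either direction, beside 96.8% of all genes tested, and 29 (93.5%) had intervals within 1.25-fold, beside 79.5%. The 2 outside the narrower bound were Acer2 and S1pr2. Within-group spread was ordinary, with a median SD on the log2(FPKM + 1) scale of 0.078 for the members and 0.085 for all genes. The median size of the change, in either direction, was 0.07 for the members and 0.05 for all genes.

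**Figure D4:**
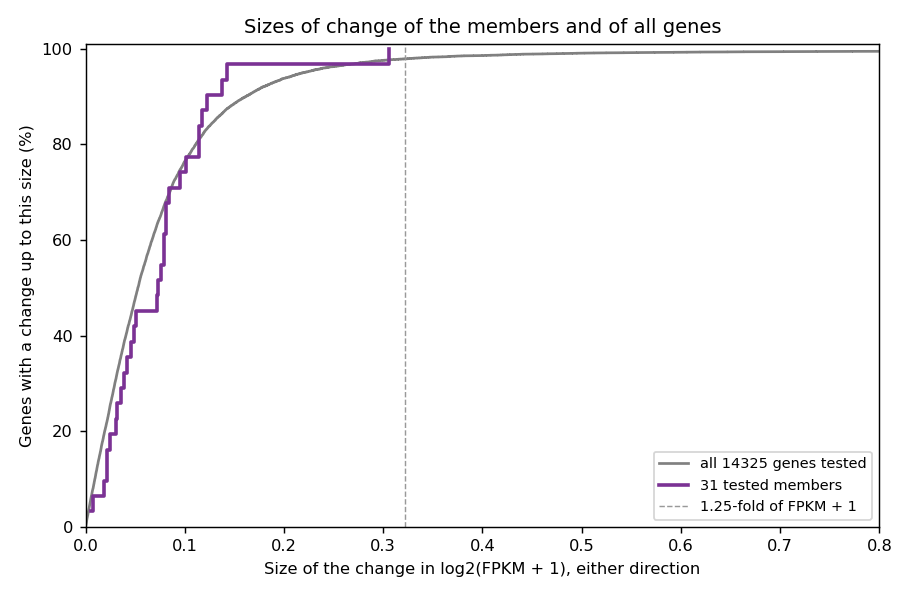
Cumulative share of genes (vertical axis, %) whose change in log2(FPKM + 1) between genotypes was up to the size on the horizontal axis, for the 31 tested members and for all 14325 genes tested. The horizontal axis ends at 0.8, beyond which some of all genes lie. The median size was 0.07 for the members and 0.05 for all genes, and the single step near 0.31 is Acer2.

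Of 34 further sphingolipid genes, 29 were tested and none passed limma's adjusted threshold. At an unadjusted limma p below 0.05 there were 4, or 13.8%, all lower in triple-deficient libraries, beside 3.33% of all genes for a lower value at that p. The same 4 were the tested ones without overlap between groups, beside 5.64% of all genes that were lower without overlap. As for the members, a single gene moves such shares by several percentage points. Cers5, a ceramide synthase, was at 25.4, 22.9 and 23.8 FPKM in the controls and 20.2, 19.6 and 20.4 FPKM in the triple-deficient libraries. Cers5 lies 1.34 Mb from Ankrd33, and the part of this position in its values was not tested. Its synthase relative Cers1 was at 11.5, 9.87 and 10.2 FPKM and at 9.78, 8.36 and 6.98 FPKM, with triple-deficient 3 the lowest (longest transcript 62.6% GC). Gltp, a glycolipid transfer protein, was at 10.4, 10.3 and 9.97 FPKM and at 9.34, 8.26 and 9.13 FPKM. Smpdl3a, a phosphodiesterase related to acid sphingomyelinase, was at 8.58, 7.83 and 8.47 FPKM and at 7.48, 7.33 and 7.21 FPKM. Adjusted p in the limma fit was 0.508, 0.866, 0.866 and 0.906 in the order named. For carriers of ceramide and S1P the groups overlapped: Col4a3bp, the ceramide transfer protein, was at 21.3 ± 1.56 and 21.6 ± 1.72 FPKM, and the S1P exporter Spns2 at 6.94 ± 0.60 and 6.92 ± 0.416 FPKM (SD, n = 3).

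Exons of 14 members share bases with another gene in GENCODE M21, among them Sptssa, Cerk, Degs2, Sphk2 and S1pr3. For 12 of the 14 a partner lies on the opposite strand. The library kit keeps strand, but whether the counting used it is not stated here, so fragments of partners cannot be told apart there.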

How the data were processed

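Polyadenylated RNA of whole retinas was sequenced from stranded TruSeq libraries, per the labels' protocols. The deposited tables hold 1 FPKM value per gene symbol and library, per the file headers. The submitters' processing notes list TopHat2 2.1.1, Bowtie2 2.3.5.1, Cufflinks 2.2.1, Cuffdiff and mm10, with no roles. The annotation, and any scaling across libraries, is not given in those notes. A count model was never run on the FPKM values, and depth was estimated from steps of values below 0.3 FPKM.

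Genotypes were compared with limma 3.58.1 in R 4.3.3 (mean-variance trend, two-sided) on log2(FPKM + 1), with a mean of at least 0.5 FPKM and Benjamini-Hochberg adjustment over 14325 genes. The test was checked on simulated data. Replicates are separate libraries, and no label says that each comes from its own animal, so p-values cover the spread between these samples. GC content came from the longest GENCODE M21 transcript and coordinates from RefSeq GRCm38.p6. Values in every library are given for the most abundant member of each role, members with an unadjusted p below 0.05 or non-overlapping groups, and the small subunits and ORMDL genes; those of Sphk1, Sphk2, Sgms2 and S1pr5, and the group means of Spns2 and Col4a3bp, were added after their values were seen. Members, gene lists and alternatives (filter, pseudocount, trend, shrinkage, scaling, weights, each library left out, replicate block, GC trend) were chosen with earlier results of these data known.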

Additional observations from a re-analysis of the deposited data

How the results depend on the processing

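None of the members and none of the further sphingolipid genes passed limma's adjusted threshold in any of the 17 alternatives, and both targeted genes passed in all of them. The 31 tested members gave 525 values under the alternatives: 491 kept their sign, and 34, from 13 members, changed sign without a call. Acer2 stayed between -0.37 and -0.24 (log2; adjusted p 0.209 to 0.998, the smallest with array quality weights).

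The number of members at an unadjusted p below 0.05, 3 with all libraries, was 5 with no filter on low values (5.1% of all genes) and 1 with no trend (5.26%), and ran from 1 to 4 with 1 library left out (3.74% to 7.20% of all genes). Acer2 was among them in each of these fits, and it was the single one without control 1 and without triple-deficient 2. The number with groups that do not overlap, 5 with all libraries, ran from 6 to 12 with a library left out, which leaves fewer libraries to overlap (18.5% to 22.8% of all genes for the settings that moved it by over 1.5 times). The cause of the remaining moves was not tested.

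With the replicate number as a block, 2 members, Acer2 and Cerk, had an unadjusted p below 0.05 (5.06% of all genes), so Sptssa was lost. With the GC trend removed as well there were 3, Acer2, Cerk and S1pr3 (5.35%). The groups did not overlap for 5 members in both fits (10.5% and 11% of all genes), but with the GC trend removed Cerk took the place of Sptssa. Same-numbered libraries correlated at 0.02, 0.11 and 0.07 in their deviations from the group means. Libraries with different numbers ran from -0.19 to 0.12. With 3 libraries per group these values cannot decide whether the numbers mark pairs. No label says that they do, so the main fit left the numbers out. Depth limits the members below 0.5 FPKM, which rest on at most about 83 fragments per library.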
